A study of Mus musculus with 6 samples.

Results

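Mitochondria fuse and divide continually, and 10 mouse genes that carry out or steer these steps were followed here in M II stage oocytes matured in vitro with or without quercetin. They are the fusion GTPases *Mfn1*, *Mfn2* and *Opa1*, the proteases *Oma1* and *Yme1l1*, the fission GTPase *Dnm1l*, and the fission receptors *Mff*, *Fis1*, *Mief1* and *Mief2*. The genes were chosen by name from the textbook fusion and fission machinery, not by their values, though earlier results of these data were known. All 10 are among the 53465 genes of the deposited count table. Each symbol matched 1 Ensembl gene identifier.

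The samples were 6 pools of oocytes from female Kunming (KM) mice aged 9 to 10 months, a naturally aged model, and each pool held 15 oocytes of 3 mice. In the control group, 3 pools were matured in medium without quercetin. In the quercetin group, 3 pools were matured with 10 μM quercetin, a plant flavonol used as an antioxidant. Oocytes of both groups were stripped of cumulus cells before maturation and came from mice primed with gonadotropin, and the labels name no transgene or deletion. Quercetin was dissolved in DMSO, and whether the control medium held DMSO is not given in the sources used here.

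Fusion of the outer membrane is driven by the mitofusins MFN1 and MFN2, and fusion of the inner membrane by OPA1. The proteases OMA1 and YME1L cut long forms of OPA1 into short forms. Fission is driven by DRP1, the product of *Dnm1l*, which is recruited to the outer membrane by the receptors MFF, FIS1, MID49 (*Mief2*) and MID51 (*Mief1*) and constricts it. Oocyte mitochondria are small and round, and they have to be spread and segregated correctly during meiosis. Fully grown oocytes transcribe little, so their mRNA at M II is largely stored from growth. The libraries copied polyadenylated RNA from whole pools, so fewer oocytes and less RNA per oocyte cannot be told apart, nor can less mRNA and shorter poly(A) tails.

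Total counts were 7880467 to 9938743 per pool, and 11842 genes had enough reads to be tested. The 10 oocyte markers summed to between 16290 and 20220 TMM-scaled CPM (each gene's share of a library's counts on a common scale) in the 6 pools. The largest parts were *Gdf9*, at 5583 to 7504 CPM, and *Oosp1*, at 4694 to 7153 CPM. Some markers were less even, and *Zp2* ran from 131 to 1560 CPM. *Ooep* had 490, 971 and 693 CPM without quercetin and 236, 269 and 637 CPM with it. Its log2 fold change was -0.915 (unadjusted p = 0.0412, adjusted p = 0.988, edgeR's quasi-likelihood test). Of the 10 log2 fold changes, 5 were above and 5 below 0. The 12 cumulus and granulosa markers summed to between 73.9 and 91.3 CPM without quercetin and between 93.7 and 99.2 CPM with it, with *Amh*, *Foxl2* and *Ptx3* at 0 in every pool. Most of that sum was *Cyp19a1*, at 58.4 to 75.9 CPM, and without it the sums ran from 15.5 to 25.8 CPM without quercetin and from 20.6 to 23.3 CPM with it. Among the others, *Nr5a2* had 96 to 146 counts, *Has2* 14 to 49, *Fshr* 6 to 18 and *Hsd3b1* 4 to 21. *Inha* and *Inhba* had at most 9 and 5 counts in a pool. *Tnfaip6* had 0 counts in each control pool and 2, 8 and 4 with quercetin. *Star* had 2, 0 and 4 counts without quercetin and 1, 0 and 0 with it. What part the difference in these sums has in the results was not tested.

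The set holds the paralogue pairs *Mfn1* and *Mfn2* and *Mief1* and *Mief2*, in which *Mfn2* was far below *Mfn1* and *Mief2* had no counts, and these are shown with the 250 bases before their RefSeq start sites (build GRCm38.p6). *Mfn1* lies on chromosome 3 from 32529465 to 32579239 on the plus strand (exon length 6114 bases), and *Mfn2* on chromosome 4, minus strand, from 147873599 to 147904704 (5194 bases). *Mief1* lies on chromosome 15 from 80234018 to 80253371 and *Mief2* on chromosome 11 from 60728398 to 60732951, both on the plus strand. The windows cover chr3:32529232-32529481, chr4:147904699-147904948, chr15:80233830-80234079 and chr11:60728148-60728397, each read 5′ to 3′ on the strand of its gene. Capitals mark matches, on either strand, to a GC box (GGGCGG) or an ETS word (CCGGAAGT).
Mfn1: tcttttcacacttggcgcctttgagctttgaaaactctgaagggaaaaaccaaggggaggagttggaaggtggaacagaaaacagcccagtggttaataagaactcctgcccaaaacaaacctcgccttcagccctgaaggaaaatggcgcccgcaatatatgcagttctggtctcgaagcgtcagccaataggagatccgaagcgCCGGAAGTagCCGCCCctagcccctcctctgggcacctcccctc
Mfn2: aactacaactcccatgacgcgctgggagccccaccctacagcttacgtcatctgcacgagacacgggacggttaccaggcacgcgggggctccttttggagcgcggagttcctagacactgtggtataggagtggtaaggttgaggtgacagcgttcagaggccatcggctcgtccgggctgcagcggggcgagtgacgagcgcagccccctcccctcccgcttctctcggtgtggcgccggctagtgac
Mief1: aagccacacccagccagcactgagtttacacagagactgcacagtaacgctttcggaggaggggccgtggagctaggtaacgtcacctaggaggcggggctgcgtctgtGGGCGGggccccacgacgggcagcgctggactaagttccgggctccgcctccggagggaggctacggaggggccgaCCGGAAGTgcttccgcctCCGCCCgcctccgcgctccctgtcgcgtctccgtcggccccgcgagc
Mief2: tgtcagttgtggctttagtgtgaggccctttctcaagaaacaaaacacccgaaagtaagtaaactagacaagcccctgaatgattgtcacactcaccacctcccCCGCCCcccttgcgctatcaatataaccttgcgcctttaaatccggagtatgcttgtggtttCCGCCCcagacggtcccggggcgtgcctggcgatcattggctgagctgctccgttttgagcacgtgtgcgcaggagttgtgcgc

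All 10 genes had an entry in the promoter table, and where several starts were listed the one nearest to the annotated gene start was used, as for *Mfn2* with 3 starts. The GC box was found before 9 of the 10 genes, that is all but *Mfn2*, and in 32.7% of 32851 windows of this length in the mouse table. The ETS word was found before *Mfn1*, *Fis1* and *Mief1*, and in 2.88% of all windows. An NRF1 word (TGCGCATGC, in 1.28% of all windows) was found once, before *Opa1*, and a TATA word (TATAAA, in 12.4%) before none of the 10. The number of CG dinucleotides was 10 before *Mfn1*, 22 before *Mfn2*, 27 before *Mief1* and 14 before *Mief2*. It ran from 8 to 27 over the windows of the 10 genes, against a median of 6 over all windows. The shares of all windows given above are thus not matched in CG content, and shares in windows of like CG content were not computed. These letters are a description of the windows, and which start sites the oocytes used was not measured.

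*Mfn1* was by far the more abundant mitofusin mRNA, and *Mfn2* was close to the limit of detection. *Mfn1* had 912, 617 and 596 counts without quercetin and 628, 601 and 658 with it. *Mfn2* had 8, 12 and 7 counts without quercetin and 6, 14 and 7 with it, which is above the floor of 3 counts in each pool but too few for the filter. Per kilobase of exon, *Mfn1* was at 12.7 ± 2.16 CPM and *Mfn2* at 0.200 ± 0.0679 CPM (SD over 6 pools), a 63.4-fold ratio of the means. Within single pools the ratio of the length-scaled levels was 96.9, 43.7 and 72.3 without quercetin and 88.9, 36.5 and 79.9 with it. *Mfn1* was thus far above *Mfn2* in 6 of 6 pools, and the ranges of this ratio in the groups overlapped. The longest run of bases that transcripts of both genes share was 21, shorter than the 31-base words used to look for shared sequence, and 0.019% of the words of *Mfn2* occurred in other genes.

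*Opa1* (chromosome 16, 29579334 to 29654884, plus strand) had 345, 339 and 323 counts without quercetin and 345, 331 and 406 with it. At 5.15 ± 0.564 CPM per kilobase it was below *Mfn1* in every pool, and its pools of the same group differed little, with a within-group SD of 0.152 on the log2 CPM scale against a median of 0.305 over all tested genes. The stress-activated protease gene *Oma1* (chromosome 4, 103313812 to 103371868, plus strand) had 135, 162 and 190 counts without quercetin and 147, 252 and 194 with it. The gene of the ATP-dependent protease, *Yme1l1* (chromosome 2, 23156369 to 23199260, plus strand), had 97, 86 and 83 counts without quercetin and 87, 62 and 105 with it. Per kilobase, *Oma1* was above *Yme1l1* in each pool, by 5.20, 7.04 and 8.55 times without quercetin and by 6.31, 15.2 and 6.90 times with it. The ratio of the means was 7.70, and 5.06 with the length of the longest protein-coding transcript. Quercetin replicate 2 stood apart in this ratio, with the highest *Oma1* and the lowest *Yme1l1* of the 6 pools, and the other quercetin pools lay within the control range.

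On the fission side, *Dnm1l* (chromosome 16, 16312230 to 16358959, minus strand) was abundant, with 2889, 2477 and 2333 counts without quercetin and 2323, 2451 and 2504 with it. It was at 55.7 ± 4.26 CPM per kilobase (SD over 6 pools), higher than 91.7% of tested genes, and was the steadiest of the tested members, with a within-group SD of 0.120 on the log2 CPM scale. Of its 31-base words, 9.51% also occur in other genes, 5.63% in the pseudogene *Gm13719*, which had at most 1 count in a pool, and 4.67% of its exon length lies opposite *Gm49521*.

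*Mff*, whose product is the main receptor for DRP1 in many cells, was the most abundant receptor gene. It lies on chromosome 1 from 82724890 to 82752394 on the plus strand, and had 1584, 2294 and 2429 counts without quercetin and 1310, 2364 and 1484 with it. *Fis1* (chromosome 5, 136953275 to 136966234, plus strand), the gene of a tail-anchored receptor, had 36, 89 and 54 counts without quercetin and 38, 55 and 29 with it. *Mief1* had 19, 32 and 29 counts without quercetin and 25, 31 and 32 with it, and *Mief2* had 0 counts in each of the 6 pools. Per kilobase, *Mff* was 6.65 times *Fis1* and 56.3 times *Mief1* in the ratio of the means, and made up 80.8% to 87.9% of the summed receptor level in single pools. These values depend on the length used, and with the longest protein-coding transcript of each gene they were 17.2 times, 167 times and 91.7% to 95.1%. A count of 0 allows up to 3 counts for *Mief2*, which is 0.138 CPM per kilobase or less in each pool, and the mean of *Mief1* was at least 3.13-fold higher than the mean of these floors. This floor covers counting error only, because the cDNA was amplified and its reads carry no molecular identifiers. No other annotated gene overlaps the exons of *Mief2*, and 0.109% of its 31-base words occur elsewhere. Of the exon length of *Mief1*, 2.63% overlaps *AC140267.1* on the same strand, and of that of *Mff*, 2% overlaps *C430014B12Rik* on the other strand, so a few of their reads could belong to either gene.

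Ordered by level per kilobase of exon, *Dnm1l* came first, followed by *Mff*, *Mfn1*, *Oma1*, *Opa1*, *Fis1*, *Yme1l1*, *Mief1*, *Mfn2* and *Mief2*. The ranges over pools overlapped between *Mfn1* and *Oma1*, between *Opa1* and *Fis1* and between *Mief1* and *Mfn2*, and did not overlap between the other neighbours. *Mfn1* was above *Oma1*, and *Opa1* above *Fis1*, in 5 of 6 pools, while *Mief1* was above *Mfn2* in 6 of 6. The place of *Mff* depended on the length used. Its annotated exons span 9757 bases, but its longest protein-coding transcript has 2087. With the lengths of such transcripts, *Mff* stood at 106 and *Dnm1l* at 73.1 CPM per kilobase, and *Mff* was higher in 6 of 6 pools. *Opa1* was then above *Fis1* in 3 of 6 pools, and every other place in the order stayed as it was.

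**Figure D1:**
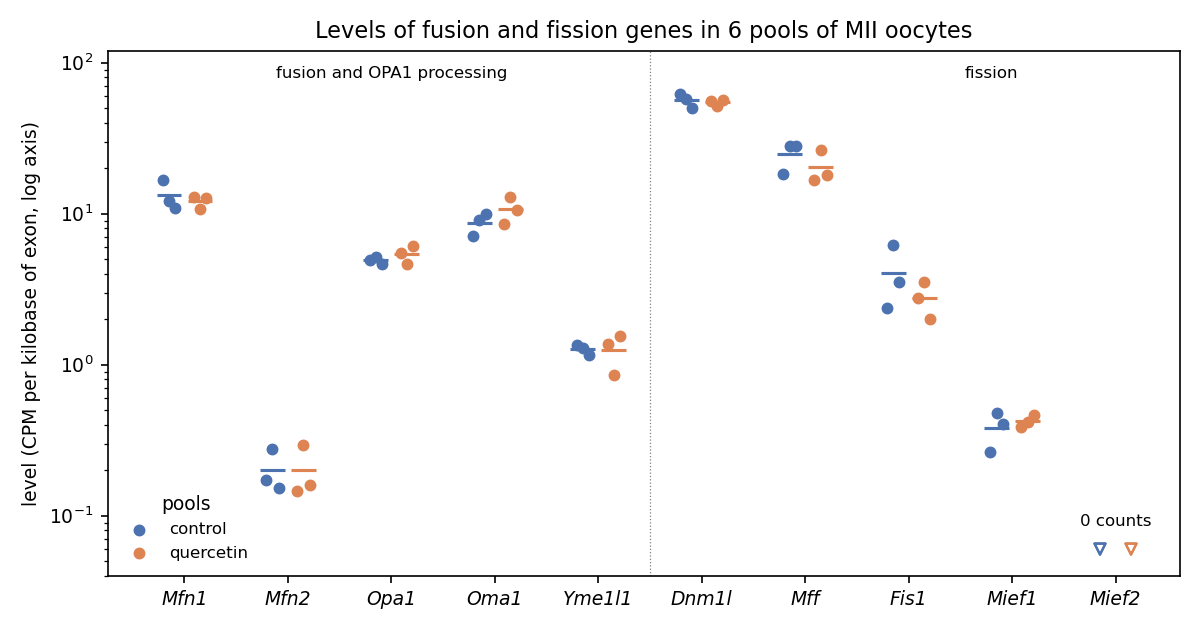
Level of each gene in TMM-scaled CPM per kilobase of exon (log axis), with 1 point for each pool of the control and quercetin groups and a line at the group mean. *Dnm1l* lay between 50.5 and 62.3 and *Mfn2* between 0.145 and 0.296. *Mief2* had 0 counts in every pool, and its open triangles near the foot of the axis mark no measured level. With transcript length in place of exon length *Mff* is above *Dnm1l*.

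Quercetin was compared with control to ask whether the mRNA of the fusion and fission machinery differed after maturation. Of the 10 genes, 8 passed the filter on low counts, and *Mfn2* and *Mief2* did not. In edgeR's quasi-likelihood test, adjusted by the Benjamini-Hochberg method over all tested genes, 0 of the 8 were called at an adjusted p under 0.05, against 0% of the 11842 genes tested, where the smallest adjusted p was 0.073. Without adjustment, 0 of the 8 had a p under 0.05, against 4.03% of all tested genes. DESeq2 and edgeR's likelihood ratio test also called 0 of the 8, against 17 and 18 of the 11842 genes. In none of the 8 were the groups free of overlap in CPM, against 10.6% of all tested genes. The median log2 fold change of the 8 was -0.038, with 3 above and 5 below 0, and that of all tested genes was -0.026.

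Among the fusion genes, *Mfn1* had 102, 74.2 and 67.1 CPM without quercetin and 78.7, 65.9 and 77.4 CPM with it. All 3 quercetin pools lay within or just under the control range, and the highest value was control replicate 1. The group means were 81.2 ± 18.7 and 74.0 ± 7.04 CPM (SD, n = 3). In edgeR's quasi-likelihood test this was a log2 fold change of -0.13, with a standard error of 0.19 and an adjusted p = 0.988. *Opa1* had 38.7, 40.8 and 36.3 CPM without quercetin and 43.2, 36.3 and 47.8 CPM with it. Quercetin replicates 1 and 3 were above the controls and replicate 2 was at their lower end. Its log2 fold change was 0.14, with a 95% interval from -0.27 to 0.54.

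*Oma1* had the highest log2 fold change of the 8, 0.30 with a 95% interval from -0.23 to 0.83. It had 15.1, 19.5 and 21.4 CPM without quercetin and 18.4, 27.6 and 22.8 CPM with it, so quercetin replicate 1 lay within the control range and the other quercetin pools above it (two-sided exact permutation test over the 6 pools, p = 0.3, where 3 pools against 3 cannot give less than 0.1). *Yme1l1* had 10.9, 10.3 and 9.34 CPM without quercetin and 10.9, 6.80 and 12.4 CPM with it, with a log2 fold change of -0.025 and a 95% interval from -0.64 to 0.59. Its quercetin pools lay on both sides of the controls. With a pool left out, *Oma1* ran from 0.146 without quercetin replicate 2 to 0.437 without quercetin replicate 1, and it was 0.171 without control replicate 1. Its place as the highest of the 8 was lost without quercetin replicate 2, when *Opa1* was at 0.239, and without control replicate 2, when *Mief1* was at 0.348 and *Oma1* at 0.332.

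Among the fission genes, *Dnm1l* had the narrowest interval, a log2 fold change of -0.050 with 95% limits of -0.36 and 0.26, or 0.779-fold to 1.20-fold. Its values were 324, 298 and 262 CPM without quercetin and 291, 269 and 295 CPM with it, the latter all within the control range. *Mff* had 178, 276 and 273 CPM without quercetin and 164, 259 and 175 CPM with it. Its pools fell at a high and a low level in both groups, with control replicate 1 and quercetin replicates 1 and 3 low. The log2 fold change was -0.28 (95% interval -0.80 to 0.24, two-sided exact permutation test, p = 0.2). With a pool left out it ran from -0.157 without quercetin replicate 1 to -0.514 without quercetin replicate 2, the latter with an unadjusted p = 0.046 and an adjusted p = 1 in edgeR's quasi-likelihood test. It was also smaller than reported without control replicate 2 (-0.176), control replicate 3 (-0.179) or quercetin replicate 3 (-0.192), and larger without control replicate 1 (-0.459).

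*Fis1* had the lowest log2 fold change and the widest spread, with 4.04, 10.7 and 6.08 CPM without quercetin and 4.76, 6.03 and 3.41 CPM with it. Control replicate 2 was the highest pool, and control replicate 1 lay among the quercetin pools. The group means were 6.94 ± 3.41 and 4.74 ± 1.31 CPM (SD, n = 3). The 95% interval of its log2 fold change of -0.545 ran from -1.44 to 0.35, and the adjusted p was 0.988 in edgeR's quasi-likelihood test. With a pool left out it ran from -0.091 without control replicate 2 to -0.817 without control replicate 1, and it was -0.354 without quercetin replicate 3 and -0.758 without quercetin replicate 2. *Mief1* had 2.13, 3.85 and 3.26 CPM without quercetin and 3.13, 3.40 and 3.77 CPM with it, a log2 fold change of 0.16 with a 95% interval from -0.58 to 0.89. Its quercetin pools lay between the lowest and the highest control pool.

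**Figure D2:**
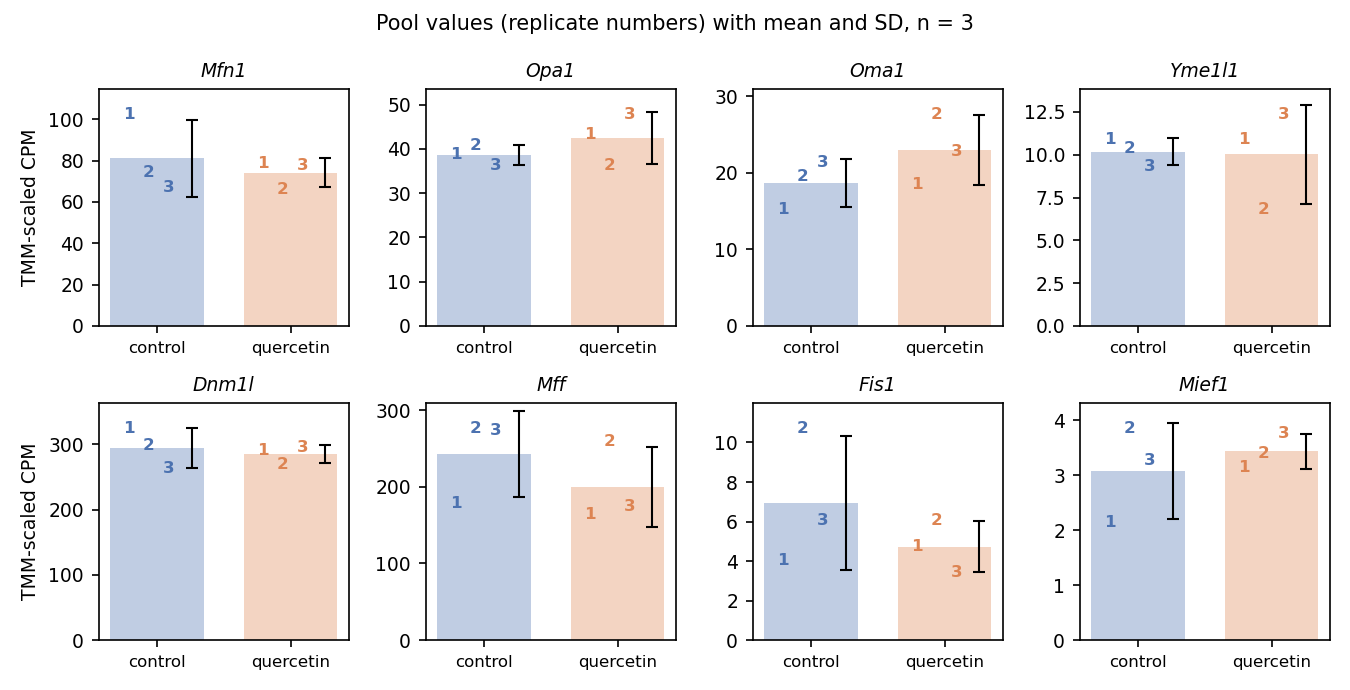
TMM-scaled CPM of the 8 tested genes in control and quercetin pools, where each digit is the value of the pool with that replicate number, bars are group means and error bars are the SD (n = 3). The groups overlapped for each gene, from *Dnm1l*, at 262 to 324 CPM, to *Mief1*, at 2.13 to 3.85 CPM.

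*Mfn2* and *Mief2* could not be compared in this fit. For *Mfn2*, the means were 1.04 ± 0.351 CPM without quercetin and 1.04 ± 0.433 CPM with it (SD, n = 3, p = 0.9 in the two-sided exact permutation test), and without the filter its log2 fold change was 0.016 (standard error 0.52). *Mief2* gives no fold change, since both groups were at 0. A p above the threshold does not show that the groups are alike, and the 95% intervals, which are not adjusted for the number of genes, give what remains possible. For 7 of the 8 tested genes the interval lay within a 2-fold change in either direction, and for *Fis1* it reached 0.369-fold.

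**Figure D3:**
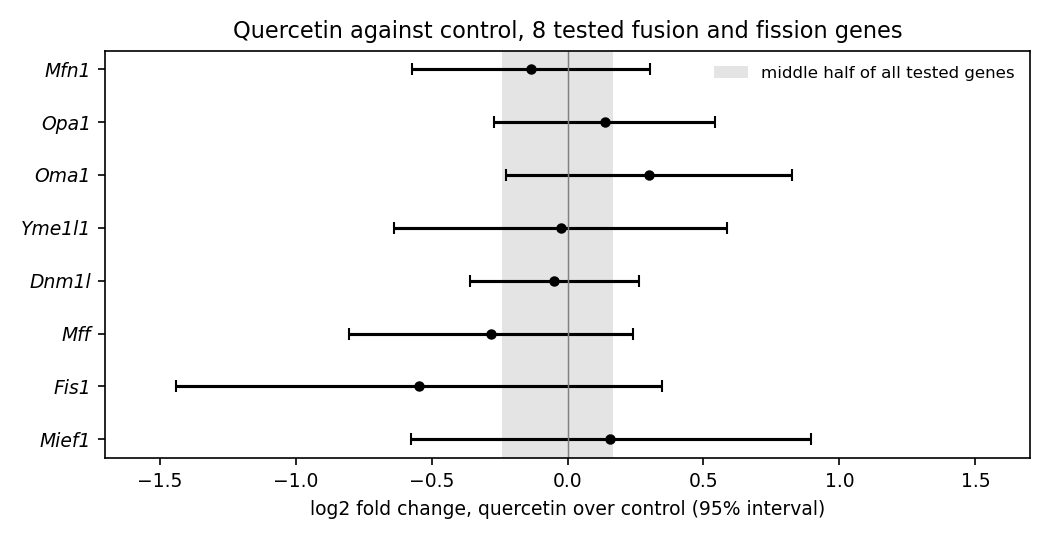
Log2 fold change of quercetin over control with its 95% interval for the 8 tested genes (points and error bars), and, as a grey band, the range from -0.24 to 0.17 that holds the middle 50% of all tested genes. Each interval includes 0, and that of *Fis1*, from -1.44 to 0.35, is the widest.

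The ratio of fusion GTPase mRNA to *Dnm1l* mRNA within a pool does not depend on how the libraries are scaled. It leaves out the fission receptors, of which *Mff* was the most abundant. The summed length-scaled level of *Mfn1*, *Mfn2* and *Opa1* relative to *Dnm1l* was 0.350, 0.307 and 0.312 without quercetin and 0.331, 0.304 and 0.334 with it. The group means, 0.323 ± 0.0236 and 0.323 ± 0.0165 (SD, n = 3), differed by less than the spread between pools. This ratio is given as a description, with no test.

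The wider machinery was taken from 6 lists with 51 genes, of which 48 were found under the listed symbol and 3 under an older one. In edgeR's quasi-likelihood test, adjusted by the Benjamini-Hochberg method, 0 of the 44 tested were called in either direction, beside 0% of all tested genes. In the same test, 0 of the 44 had an unadjusted p under 0.05, beside 4.03% of all tested genes. DESeq2 and edgeR's likelihood ratio test also called 0 of the 44, beside 17 and 18 of the 11842 genes. Of the 44, 22 had a log2 fold change above 0 and 22 below, with a median of 0.006. The groups did not overlap for 5 of the 44, or 11.4%, beside 10.6% of all tested genes. These were the higher *Ccnb1* and *Myo19* and the lower *Gdap1*, *Prkacb* and *Mtx1*, named after their values were seen.

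The fusion accessory genes had a median log2 fold change of -0.17 over 3 tested of 6. *Usp30*, the gene of a mitochondrial deubiquitinase, was at 62.2, 49.9 and 51.0 CPM without quercetin and 57.4, 44.8 and 39.9 CPM with it, and *Opa3* had a log2 fold change of -0.17. *Miga1*, *Miga2* and *Pld6*, whose products act with the mitofusins, were too low to test, with 0 to 6, 0 to 3 and 6 to 13 counts. The fission accessory genes had a median of -0.004 over 7 tested of 10. Among them, *Mtfr2*, a mitochondrial fission regulator, was very abundant, at 631 CPM per kilobase over all pools, and had a log2 fold change of 0.17. Per kilobase of exon it was 94.5 times its paralogue *Mtfr1*, a ratio that was not computed with transcript length. *Marchf5*, the gene of a ubiquitin ligase of the outer membrane that acts on fission proteins, was at 130 CPM per kilobase with a log2 fold change of -0.004. *Gdap1*, linked to fission and to Charcot-Marie-Tooth disease, had 2073, 1877 and 2239 counts without quercetin and 1786, 633 and 1134 with it. Its log2 fold change of -0.74 had a 95% interval from -1.51 to 0.041 and an adjusted p = 0.988 in edgeR's quasi-likelihood test, and quercetin replicate 1 lay just under the controls. *Mtfp1*, *Inf2* and *Mul1* were not tested, with at most 6, 7 and 6 counts in a pool.

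The genes of DRP1 kinases, phosphatases and SUMO proteases, all 11 tested, had a median log2 fold change of -0.11. Cyclin B1 (*Ccnb1*), the partner of CDK1, was at 3502, 3396 and 3742 CPM without quercetin and 3757, 5232 and 4191 CPM with it, a log2 fold change of 0.31 (95% interval -0.050 to 0.67). *Ppp3r1*, the regulatory subunit of calcineurin, which removes a phosphate from DRP1, had a log2 fold change of 0.017. Inner membrane proteases and scaffolds had a median of 0.084 over 7 tested of 8, with 0.14 for *Parl*, a rhomboid protease, and 0.086 for *Stoml2*, a cardiolipin-binding scaffold, while *Afg3l1* had 2 to 6 counts and was not tested. The cristae junction genes, all 10 tested, had a median of -0.095, with -0.13 for *Micos10* and 0.19 for *Apoo*, both subunits of the MICOS complex.

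The mitochondrial transport genes, all 6 tested, had a median of 0.13, with 5 of 6 above 0. *Rhot1*, the gene of the GTPase that couples mitochondria to motors, had 3178, 2679 and 2934 counts without quercetin and 3089, 3492 and 2615 with it, and a log2 fold change of 0.095. Its paralogue *Rhot2* had between 7 and 16 counts, so that *Rhot1* was 154 times higher per kilobase of exon and higher in 6 of 6 pools. This ratio was not computed with transcript length either. *Kif5b*, a kinesin heavy chain gene, had a log2 fold change of 0.057.

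**Figure D4:**
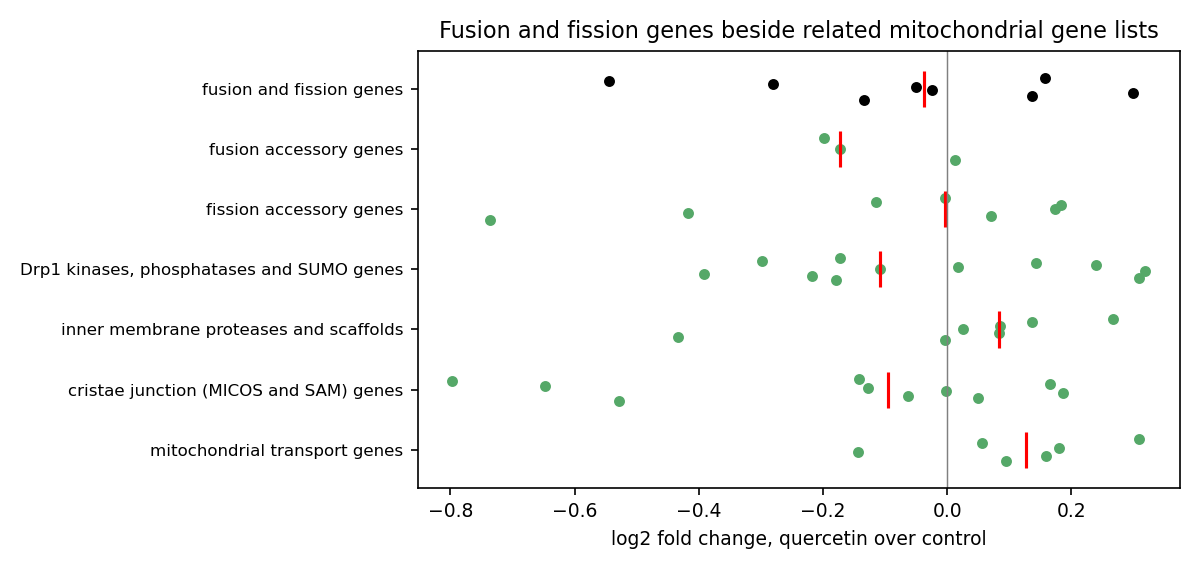
Log2 fold change of quercetin over control for each tested gene (points) of the 8 tested fusion and fission genes and of 6 lists of related mitochondrial genes, with the median of each list as a red line. The medians lie between -0.17 and 0.13, and the lowest points are *Mtx1* at -0.80 and *Gdap1* at -0.74.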

How the data were processed

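RNA from 6 pools of oocytes was sequenced with the Smart-seq HT Kit. Per the paper's methods, the authors aligned reads with Hisat2 to GRCm38.91, while the submitters' processing notes name TopHat2 2.0.6 and CASAVA 1.8. The deposited values are raw counts of reads per Ensembl gene, without normalization or pooling. The counting program, its strand setting and its treatment of reads that match several places are not given in the sources used here. Groups and replicate numbers came from the sample titles. Nothing states that pools came from separate cultures. The p-values set the difference between groups against the estimated spread between these pools, which may be partly technical. In the quasi-likelihood test this estimate draws on all tested genes. Pools of a group were not the same library, since their counts differed by far more than sampling noise (chi-square per degree of freedom 15.4 to 36.3).

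Symbols, positions and exon lengths came from GENCODE M21 (GRCm38), which named 53360 of 53465 genes. Genes were filtered with filterByExpr (minimum count 10) with TMM library scaling. The groups were then compared by glmQLFTest (edgeR 4.0.16, R 4.3.3), and p-values were adjusted by the Benjamini-Hochberg method over the 11842 genes tested. CPM used TMM-scaled library sizes, levels between genes were divided by the union of annotated exons, and single genes had an exact permutation test on log2(CPM + 0.5). The fit was tested on simulated data. Alternatives were DESeq2 1.42.0, the likelihood ratio test, other scalings and filters, the replicate block, and leaving out each pool. Transcript length was an alternative added after seeing the data. Genes of the lists were named by the 2 highest levels per list, since none had an unadjusted p under 0.05. *Gdap1*, *Mtx1*, *Prkacb* and *Myo19*, together with untested genes and paralogues, were named outside this rule after their values were seen. The rule also names the 3 genes most like the member with the smallest p, of which only the nearest is reported here. The 10 genes and the lists were chosen with earlier results of these data known. Promoter sequences are RefSeq's, on GRCm38.p6. Protein sequences were not used here.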

Additional observations from a re-analysis of the deposited data

How the results depend on the processing

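None of the 8 tested fusion and fission genes was called under any alternative run, nor were any of the 51 related genes that a run tested. Of the 51, 44 were tested in the reported fit. Over all genes, the alternative runs called from 0 to 18. Of 104 log2 fold changes of the 8 genes under alternatives, 99 had the direction of the reported value. The other 5 arose with a pool left out, where *Mfn1* ran from -0.244 to 0.070, *Yme1l1* from -0.204 to 0.193, *Dnm1l* from -0.118 to 0.026 and *Mief1* from -0.047 to 0.348, and the cause was not tested. Without control replicate 1, *Mfn1*, *Dnm1l* and *Mief1* changed sign, as did *Yme1l1*, which also did so without quercetin replicate 2. Leaving out a pool moved the median of the 8 from -0.119 to 0.069, those with an unadjusted p under 0.05 from 0 to 1 (*Mff*, without quercetin replicate 2) and those without overlap from 0 to 3 of 8 (the latter also without quercetin replicate 2). Of all 12258 genes tested without that pool, 2.64% had an unadjusted p under 0.05 and 18.2% did not overlap.

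Over all genes, edgeR's quasi-likelihood test called 0, DESeq2 17 and the likelihood ratio test 18. With every gene with at least 1 count tested, 3 of 24476 were called, 780 had an unadjusted p under 0.05 and 1899 did not overlap. With a pool left out, 0 (without control replicate 3) to 7 (without quercetin replicate 1) were called. Without control replicate 2, 241 genes (1.98%) had an unadjusted p under 0.05 and 1976 (16.2%) did not overlap, the fewest. Without quercetin replicate 3, these were 1563 (12.8%) and 3855 (31.4%), the most. With all pools the shares were 4.03% and 10.6%. With the replicate number as a block, 0 of the 8 members and 0 of the 11842 genes tested were called. The numbers were not taken as pairs, because the methods do not describe the pools as paired. Deviations of same-numbered pools correlated by 0.305, 0.092 and -0.031, which cannot settle whether the numbers mark pairs. *Mfn2* and *Mief2* had at most 14 and 0 counts, too few for a test at this depth.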

Other observations

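Some of the genes shared the pools in which they were lowest, a pattern noticed after the values were seen. *Mfn1*, *Opa1*, *Yme1l1* and *Dnm1l* each had their lowest 2 values in control replicate 3 and quercetin replicate 2, a pattern held by 6.44% of the 11842 tested genes (8.68% when scaled by library size only). The receptor genes *Mff* and *Fis1* were both lowest in control replicate 1 and quercetin replicates 1 and 3, as were 6.22% of tested genes. The same members showed each pattern under both scalings, and *Oma1* and *Mief1* showed neither. No test was made of these patterns.

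*Fis1* had the smallest unadjusted p of the members, 0.201 in edgeR's quasi-likelihood test. The gene nearest to it in centred log2 CPM over the 6 pools, among 7930 genes at 5 CPM or more, was *Tekt4*, with a root mean square difference of 0.110 on the log2 scale.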
